A study of Mus musculus with 6 samples.

Results

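The islet hormone genes examined here were Ins1 and Ins2, the insulin genes of the mouse, Iapp, Ucn3, Gcg, Ttr, Sst, Ppy and Pyy, chosen by name from the genes of the count table. All 9 had a row among its 15286 genes. Strand-specific total RNA sequencing was performed on the islets of 6 male mice aged 12 weeks (3 per genotype, WT or flox/flox), 1 library per mouse, to ask whether loss of the long non-coding RNA A830019P07Rik (P07Rik) alters gene expression in islets. The flox/flox mice carried, on both alleles, a floxed cassette with promoter-driven neomycin resistance in the first intron of P07Rik that ends its transcript early, with no Cre, so every cell of these mice carries the allele. The WT mice were P07Rik +/+ littermates from heterozygous interbreeding. All 6 mice were on the C57Bl/6N background, and their islets were hand-picked after collagenase digestion and kept for 2 h at 3 mM glucose before RNA extraction. WT2772 and WT2777 (WT) and KO2775 and KO2776 (flox/flox) came from litter 1, and WT2931 (WT) and KO2938 (flox/flox) from litter 2. P07Rik itself was not analysed here.

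An islet is a mixture of endocrine cells that are told apart by the hormone they secrete. Beta cells release insulin and amylin (Iapp) when glucose is high and, once mature, urocortin 3 (Ucn3), which acts on delta cells. Alpha cells release glucagon, cut from the precursor that Gcg encodes, and are rich in transthyretin (Ttr), the carrier of thyroxine and of retinol-binding protein. Delta cells release somatostatin (Sst), which restrains both neighbours, and PP cells release pancreatic polypeptide (Ppy) and, in part, peptide YY (Pyy). In whole islets, fewer cells of a type and less hormone RNA per cell cannot be told apart.

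Library totals ran from 611181 to 800255 counts. A single non-coding gene, AY036118, took between 13.6% and 22.1% of the counts in 5 libraries and 41.0% in KO2938, which therefore stands apart, and the main genotype and litter values are given with and without it. The hormone genes were weakly represented for islet tissue. Together they held 217 to 559 counts per library, between 0.0271% and 0.0704% of all counts, and Ins2, the highest of them, was only 605th of 15286 genes by mean count. Hprt, a housekeeping gene used as the qPCR reference in islets, had 0 to 2 counts. The convertase gene Pcsk2 had 73 to 139 counts, while its annotated opposite-strand genes Pcsk2os1 and Pcsk2os2 had 4720 to 6695 and 5310 to 7336. Across the table, the 3905 protein-coding genes with an exon overlapped on the opposite strand had a median mean count of 9.83, and the 6456 without one had 3.17. No exon of a hormone gene is overlapped by an exon on the opposite strand in the annotation. The kit keeps the strand of the RNA, and HTSeq's default setting, which the study's methods give, counts only reads on the gene's own strand as sequenced. Whether this setting matches the kit, or the counts hold reads from the strand opposite to each transcript, was not tested. Every level, rank and ratio below is therefore one of these counts and may not be that of the hormone mRNA, besides the limit that low counts set on precision.

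The beta cell genes came first. Ins2, the insulin gene with an ancestral structure, gave 157 (WT2772), 205 (WT2777) and 158 (WT2931) counts in WT islets and 165 (KO2775), 128 (KO2776) and 96 (KO2938) in flox/flox islets. Ins1, its rodent-specific retrogene copy, had 63, 77 and 64 counts in the same 3 WT libraries and 63, 59 and 45 in the flox/flox libraries. The highest count of either gene was in WT2777 and the lowest in KO2938, and the genotypes overlapped for both. In CPM, the counts scaled to a common library size by the trimmed mean of M-values (TMM), Ins2 measured 232 ± 29.8 in WT and 212 ± 39.9 in flox/flox islets (SD, n = 3 each), and Ins1 measured 91.0 ± 7.77 and 91.9 ± 12.7.

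Because the insulin genes are close copies, the stretch in which they are most alike is shown here. Ins1 lies on chromosome 19 (chr19:52264297-52265476, plus strand, GRCm38) and Ins2 on chromosome 7 (chr7:142678656-142743381, minus strand). Among the 938 windows of 125 bases, the length of a read, along the main Ins1 transcript, the closest match in the main Ins2 transcript is the following coding stretch, which starts in the signal peptide's last codons and covers the insulin B chain. Capitals mark the bases that differ.
Ins1 (chr19:52264684-52264808, plus strand): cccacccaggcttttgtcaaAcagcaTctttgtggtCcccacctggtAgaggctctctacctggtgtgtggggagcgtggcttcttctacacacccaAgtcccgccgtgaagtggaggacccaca
Ins2 (chr7:142679349-142679473, minus strand): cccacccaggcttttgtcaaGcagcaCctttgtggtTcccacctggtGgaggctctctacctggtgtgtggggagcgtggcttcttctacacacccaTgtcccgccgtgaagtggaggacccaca
The stretches differ at 5 bases, an identity of 96.0%. No window matched exactly or with up to 3 mismatches, 66 windows had at most 10 mismatches, and the median was 79. How reads in this stretch were assigned was not tested.

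Iapp, which encodes amylin and is co-secreted with insulin, had 55, 104 and 59 counts in the WT libraries and 55, 38 and 35 in the flox/flox libraries, in the same order. WT2777 was again the highest and KO2938 the lowest, and the other 4 libraries lay between 38 and 59. Iapp averaged 96.7 ± 33.2 CPM in WT and 69.8 ± 10.4 CPM in flox/flox islets (SD, n = 3 each). Ucn3, which marks mature beta cells in the mouse, had 14, 10 and 3 counts in WT and 6, 2 and 2 in flox/flox libraries. Its counts were highest in the WT mice of litter 1, and the genotypes overlapped because WT2931 fell below KO2775.

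Of the alpha cell genes, Gcg gave 43 (WT2772), 114 (WT2777) and 34 (WT2931) counts in WT islets and 43 (KO2775), 61 (KO2776) and 23 (KO2938) in flox/flox islets. A pair of litter 1 mice, 1 of each genotype, had the highest values, and both mice of litter 2 had the lowest. Ttr had 12, 12 and 9 counts in WT and 5, 6 and 4 in flox/flox libraries. Each WT count of Ttr was above each flox/flox count, with few reads in any library. Sst, the delta cell hormone, had 6, 12 and 4 counts in WT and 6, 7 and 1 in flox/flox libraries. Ppy had 20, 24 and 14 counts in WT and 7, 22 and 8 in flox/flox libraries, and its neighbour Pyy had 8, 1 and 3 in WT and 3 in each flox/flox library. Sst and Ppy overlapped between genotypes, and the WT counts of Pyy lay on either side of the flox/flox value. Ppy and Pyy lie on the same strand of chromosome 11, 5356 bp apart, and at best differ by 57 of 125 bases, so their reads are not easily confused.

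**Figure D1:**
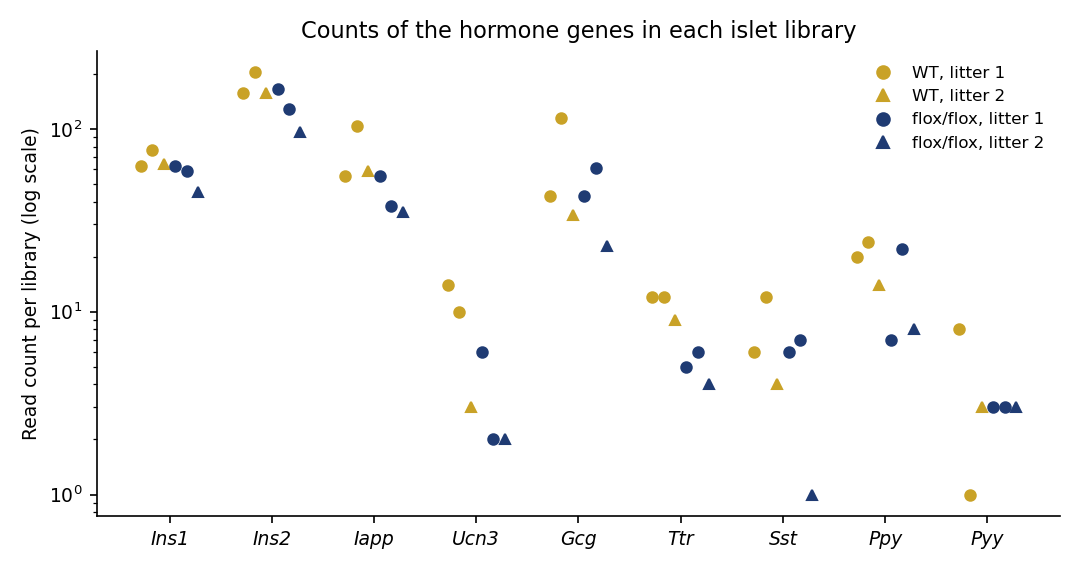
Read counts of the 9 hormone genes (log axis), 1 point per library, coloured by genotype (WT, yellow; flox/flox, dark blue) and shaped by litter (circles, litter 1; triangles, litter 2). Ins2 is highest in every library, at 96 to 205 counts, and Ucn3, Ttr, Sst and Pyy have 14 counts or fewer.

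KO2938 had the lowest CPM for 7 of the 9 genes, Ppy and Pyy being the exceptions. Its hormone genes made up 0.0271% of all counts against 0.0504% to 0.0704% in the other libraries. With AY036118 left out of the total, its share was 0.0460% against 0.0583% to 0.0880%. The part that this library's composition has in its low hormone values was not tested.

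Levels were compared between genes per length, as CPM per kb of annotated exon. Ins2 led at 169 CPM per kb, followed by Ins1 at 86.1, Iapp at 85.5, Gcg at 51.8, Ppy at 46.9, Sst at 12.1, Ttr at 9.72, Pyy at 8.27 and Ucn3 at 5.88 (means of 6 libraries). Only Ins2 was separated from its neighbour in this order, with a mean 1.97 times that of Ins1 and ranges that did not overlap. Ins1 exceeded Iapp in 4 of 6 libraries and Iapp exceeded Gcg in 5 of 6. Gcg and Ppy were close, and Gcg was the higher in only 2 libraries. Ppy exceeded Sst within all 6 libraries, although their ranges overlapped, while Sst against Ttr and Ttr against Pyy were each split 3 to 3. The exons annotated for Ins2 cover 1312 bases, and its main transcript alone has 478, so the level of Ins2 per length depends on the gene model.

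Within a library, the 2 insulin genes supplied most hormone counts. Ins2 took 36.7% to 46.7% of hormone counts and Ins1 took 13.8% to 20.7%. Iapp contributed 11.7% to 18.6% and Gcg 9.77% to 20.4%. Ppy added 1.98% to 6.75%, and each of the other hormone genes took between 0.179% and 3.70%. Gcg took 20.4% of hormone counts in WT2777 and 18.7% in KO2776, against 9.77% to 12.2% in the other 4 libraries.

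**Figure D2:**
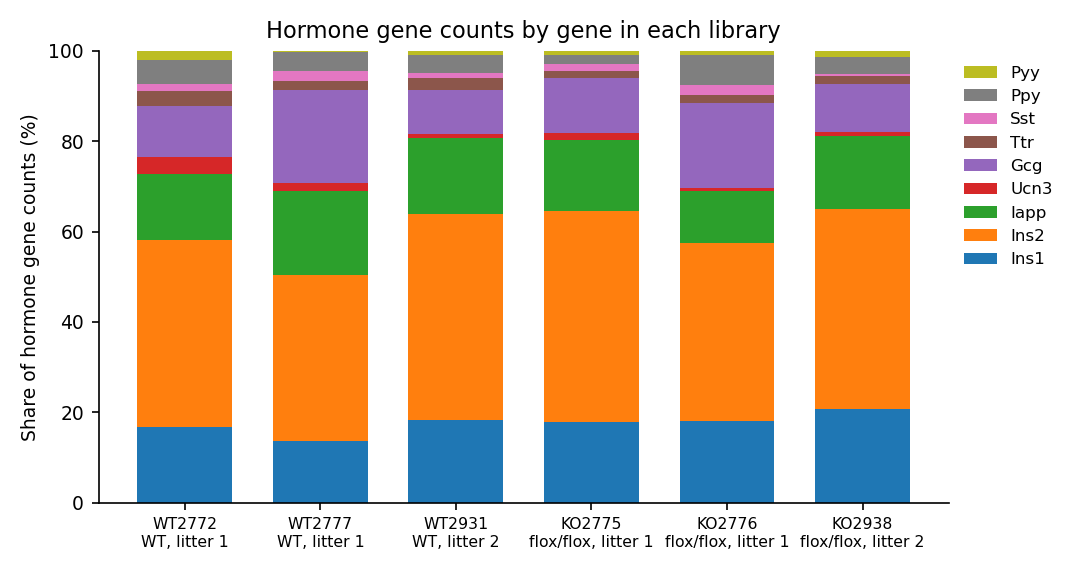
Share of all hormone gene counts taken by each gene (y axis, percent), 1 stacked bar per library, with genotype and litter under each bar. Ins2 takes 36.7% to 46.7% in each library, and the Gcg share is widest in WT2777 and KO2776.

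The comparison the series was made for is flox/flox against WT. None of the hormone genes passed an adjusted p of 0.05 (edgeR's quasi-likelihood test, Benjamini-Hochberg over 5478 genes), and the share of all tested genes that did was 0%. At an unadjusted p under 0.05, 1.84% of tested genes and 0 hormone genes passed, and DESeq2 also called 0 of the hormone genes at an adjusted p of 0.05. Ins1, Ins2, Iapp, Gcg and Ppy, 5 of the 9, had enough counts for the filter. Ucn3, Ttr, Sst and Pyy did not pass, and their fold changes come from the same test without a filter. Ins2 differed by a log2 fold change of -0.12 (SE 0.18; 95% interval -0.50 to 0.26) and Ins1 by 0.01 (SE 0.19; interval -0.40 to 0.43). For Iapp the log2 fold change was -0.47 (SE 0.25; interval -1.01 to 0.08; unadjusted p = 0.0866 and adjusted p = 0.9998 by edgeR). Gcg stood at -0.27 (SE 0.41; interval -1.15 to 0.61) and Ppy at -0.32 (SE 0.45; interval -1.29 to 0.64). These intervals are wide, and a p that misses the threshold does not show equal levels.

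Among the 4 genes below the filter, Ucn3 had a log2 fold change of -1.07 (SE 0.62), Ttr of -0.78 (SE 0.48), Sst of -0.30 (SE 0.60) and Pyy of -0.07 (SE 0.73). The Ucn3 value ran from -0.65 without WT2772 to -1.73 without KO2775. Ttr was the single hormone gene whose CPM did not overlap between genotypes, at 12.2 to 16.5 in WT and 6.99 to 10.6 in flox/flox libraries. Non-overlap between genotypes held for 7.43% of all tested genes, and the edgeR adjusted p of Ttr was 0.9972. Without KO2938, the log2 fold changes moved to 0.03 for Ins2, 0.12 for Ins1, -0.37 for Iapp, 0.01 for Gcg and -0.68 for Ttr, and again none passed.

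Litter was then placed in the model as a block, since WT and flox/flox mice were littermates. The estimates hardly moved and the standard errors shrank, to 0.14 for Ins2, 0.20 for Iapp and 0.23 for Gcg. Iapp remained at -0.47, with an interval of -0.87 to -0.07 and an unadjusted p of 0.0229, and its adjusted p was 0.9167 (edgeR). With this block 5.4% of tested genes had an unadjusted p under 0.05 and 0.0548% an adjusted one, so 1 hormone gene of 5 at the unadjusted level is to be read against that background. Leaving out WT2777, the library with the most Iapp, brought the unblocked Iapp value to -0.14. The difference between genotypes was also compared between the litters, and no hormone gene passed, against 0.128% of tested genes. Litter 2 has 1 library of each genotype, so this interaction rests on the spread within litter 1.

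**Figure D3:**
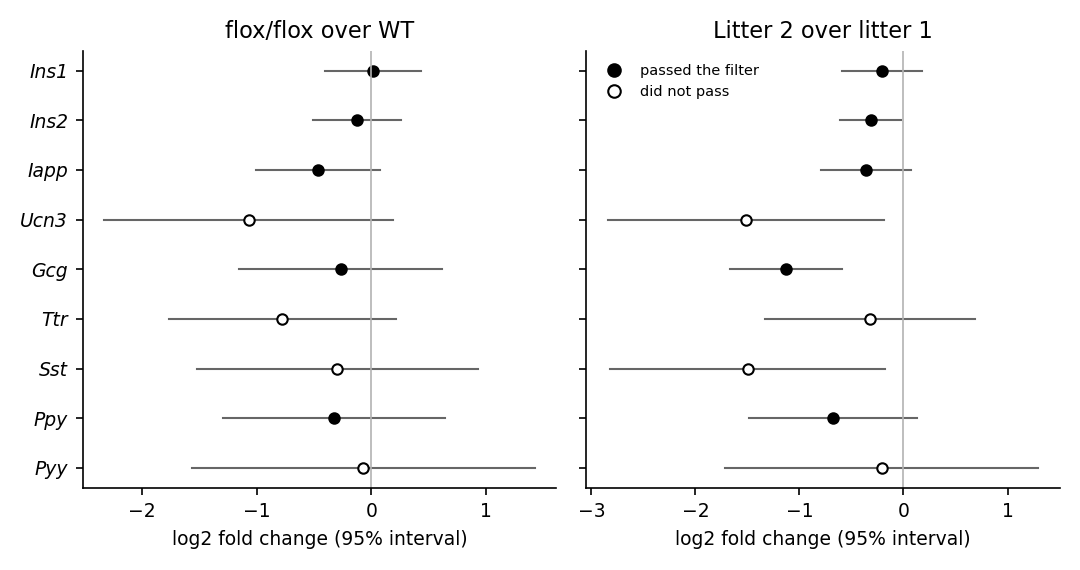
Log2 fold change of each hormone gene (points) with its 95% interval (lines), for flox/flox over WT on the left and litter 2 over litter 1 on the right. Filled points passed the count filter and open points did not. Every genotype interval crosses 0, and the litter interval of Gcg, -1.67 to -0.59, is the only one belonging to an adjusted p under 0.05.

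Ratios between hormone genes within a library do not depend on normalization. Of 12 planned ratios, 7 had at least 3 counts of both genes in every library and were compared between genotypes by two-sided exact permutation tests, whose smallest possible p is 0.1. Ins1 over Ins2, the balance of the insulin genes, was 0.401, 0.376 and 0.405 in WT2772, WT2777 and WT2931 and 0.382, 0.461 and 0.469 in KO2775, KO2776 and KO2938. It was the steadiest ratio, and its groups overlapped (log2 difference 0.15, exact permutation p = 0.3). Iapp over Ins2 was 0.350, 0.507 and 0.373 in WT and 0.333, 0.297 and 0.365 in flox/flox libraries (log2 difference -0.29, exact permutation p = 0.2). Here WT2777 alone was far above the rest.

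The balance of alpha and beta cell hormones, Gcg over Ins2, was 0.274, 0.556 and 0.215 in WT and 0.261, 0.477 and 0.240 in flox/flox libraries. The genotypes spanned nearly the same range (log2 difference -0.04, exact permutation p = 0.9). Ttr over Ins2 was 0.0764, 0.0585 and 0.0570 in WT and 0.0303, 0.0469 and 0.0417 in flox/flox libraries, with no overlap between genotypes. Its log2 difference was -0.63, and the exact permutation p of 0.1 is the smallest this design allows, or 0.525 after adjustment over the 7 ratios, and without KO2938 the difference was -0.69. The counts behind it are few, and the 95% counting interval of the lowest ratio, in KO2775, was 0.0097 to 0.0722, which holds the ratios of WT2777 and WT2931.

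Ppy over Ins2 ranged from 0.0886 to 0.127 in WT and from 0.0424 to 0.172 in flox/flox libraries (exact permutation p = 0.6). Against Gcg, Ttr stood at 0.105 to 0.279 in WT and 0.0984 to 0.174 in flox/flox libraries (exact permutation p = 0.3), and Ppy at 0.211 to 0.465 and 0.163 to 0.361 (exact permutation p = 0.5). Adjusted over the 7 ratios, the p-values lay between 0.525 and 0.9. The 5 ratios with Ucn3, Sst or Pyy as numerator were not tested because a library had fewer than 3 counts. Counting intervals cover counting error only.

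**Figure D4:**
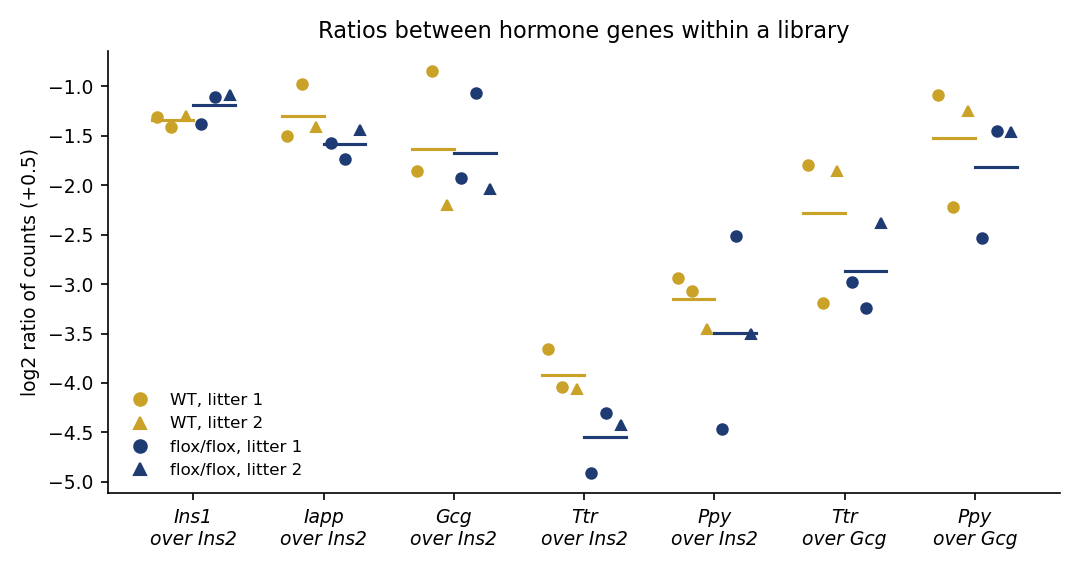
Log2 ratio of counts, each plus 0.5, for the 7 tested pairs of hormone genes (y axis), 1 point per library, with the mean of each genotype as a short line (colours and shapes as for the counts). Ins1 over Ins2 stays between 0.376 and 0.469 on the linear scale, Ttr over Ins2 separates the genotypes, and Gcg over Ins2 is lowest in both litter 2 libraries.

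Between the litters, Gcg was the hormone gene that differed. It measured 59.0, 148, 63.7 and 107 CPM in WT2772, WT2777, KO2775 and KO2776 of litter 1 and 46.0 and 40.2 CPM in WT2931 and KO2938 of litter 2. Each litter 2 value was below each litter 1 value, in both genotypes. The log2 fold change of litter 2 over litter 1, from the model with genotype, was -1.13 (SE 0.27; 95% interval -1.67 to -0.59; edgeR adjusted p = 0.002674). Among all tested genes, 11.3% differed between litters and 5.24% were lower in litter 2. Without KO2938 the value was -1.17 (edgeR adjusted p = 0.003028), a fit in which litter 2 is 1 library, assumed to vary like litter 1. It was lost without WT2777 (-0.74, adjusted p = 0.08646), without WT2931 (-1.06, adjusted p = 0.07828, again with 1 library in litter 2) and in DESeq2 (-1.13, adjusted p = 0.2925), and the range of adjusted p over all alternatives was 1.94e-06 to 0.2925. Litter 2 holds only 2 mice, and litter cannot be told apart from anything else that differed between these mice and the other 4. Within litter 1, Gcg was lower in WT2772 and KO2775 (59.0 and 63.7 CPM) than in WT2777 and KO2776 (148 and 107 CPM). By their counts these were also the pairs of libraries that differed least (chi-square per degree of freedom 1.592 and 1.672). The test treats the litter 1 libraries as independent, so its p-value may be too small.

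The other hormone genes had estimates below 0 in litter 2 but did not pass. Ins2 measured 215 to 266 CPM in litter 1 and 168 and 214 CPM in litter 2, a narrow gap (log2 fold change -0.32, SE 0.15, edgeR adjusted p = 0.1617). Ins1 (-0.21), Iapp (-0.36) and Ppy (-0.67) had adjusted p-values of 0.5408, 0.3047 and 0.2978. Of the sparse genes, Ucn3 stood at -1.52 (SE 0.68) and Sst at -1.50 (SE 0.68), with edgeR adjusted p-values of 0.262 and 0.2692. Ttr (-0.32) and Pyy (-0.21) were closer to 0. Without KO2938, Ins2 stood at -0.17, Ucn3 at -1.86 and Sst at -1.05, and without WT2931 they stood at -0.48, -0.82 and -2.44. CPM did not overlap between litters for Ins2, Gcg and Sst, 3 of 9 genes, where 32.9% of all tested genes did not overlap.

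**Figure D5:**
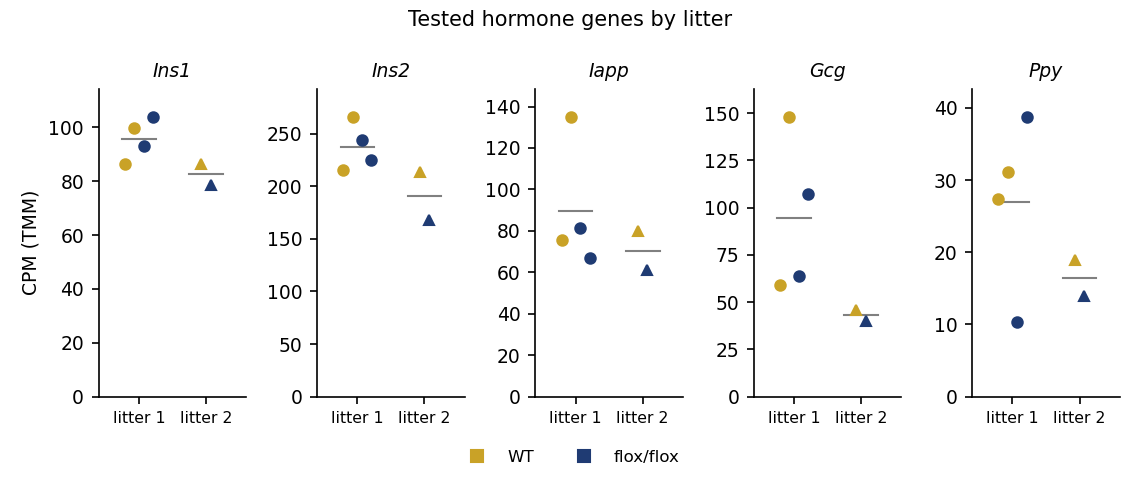
CPM (TMM) of the 5 tested hormone genes in each library by litter (circles, litter 1; triangles, litter 2), coloured by genotype, with the litter mean as a grey line and each y axis starting at 0. Gcg is at 59.0 to 148 CPM in litter 1 and 40.2 and 46.0 CPM in litter 2.

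Of the tested hormone genes, Gcg varied most between libraries of one genotype, a spread that includes the litter difference. Its biological coefficient of variation in the edgeR fit with genotype alone was 33.4%. It was 29.5% for Ppy, 19.7% for Iapp, 15.5% for Ins2 and 14.0% for Ins1, and the median over tested genes was 17.7%. With litter in the model, the standard error of the Gcg genotype difference fell from 0.41 to 0.23. Relative to Ins2, Gcg was at 0.261 to 0.556 in litter 1 and at 0.215 and 0.240 in litter 2. The ranges did not overlap, and in a comparison chosen after the litter difference was seen the log2 ratio was lower by -0.70 in litter 2 (exact permutation p = 0.1333, smallest possible 0.0667). The other alpha cell markers gave little to set beside it. Of 12 listed, 4 were in the table, and Gcg was the only one with enough counts to be tested.

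The genes that make, store and read hormones were examined as lists. By genotype, none of their tested members passed. In the list of prohormone processing and granule genes, 13 of 21 were tested and 1 differed between litters, where 11.3% of all tested genes did, so the count of this list does not stand out. Scg2, a granin that helps form secretory granules, had 170, 257, 156 and 154 counts in litter 1 and 102 and 78 in litter 2, so that the litters did not overlap (log2 fold change -0.96, SE 0.16, edgeR adjusted p = 1.908e-05), and it remained called under all 12 alternatives. The median log2 fold change of the list was -0.21, against -0.01 over all tested genes. Chga and Pcsk2 did not pass (-0.19 and -0.21). Of 25 hormone receptors and partners, 1 could be tested. This was Dpp4, the peptidase that inactivates glucagon-like peptide and other incretins, which was higher in litter 2, with 10, 16, 16 and 7 counts in litter 1 and 23 and 31 in litter 2 (log2 fold change 1.20, SE 0.33, edgeR adjusted p = 0.01182). The call of Dpp4 was lost in DESeq2, with library size only, and without KO2776 or KO2938 (range of adjusted p over the alternatives 0.00768 to 0.3223). Transcription factors of hormone genes were tested for 5 of 24, and none passed; Pax6, needed for glucagon and insulin expression, stood at -0.25 by litter.

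Markers of islet cells and of other cells in the preparation were compared between the litters as well. Among these markers only Gcg and 2 ductal genes passed, where 11.3% of all tested genes did. With so few markers tested, this count is a description and not a trait of the markers. The 6 tested beta cell markers, 3 of which are the hormone genes Ins1, Ins2 and Iapp, were all below 0 in litter 2 (median -0.47), and none passed. Without hormone genes, beta cell markers summed to 132 to 160 CPM in litter 1 and 83.8 to 108 CPM in litter 2. These sums rest on 62 to 106 counts per library. Of single tested genes, 32.9% did not overlap between litters, which is the background for each litter sum given here. Of the ductal markers, 5 of 9 were in the table and 2 of the 3 tested rose in litter 2, the mucin Muc1 (1.15, SE 0.37, edgeR adjusted p = 0.03512) and the keratin Krt7 (0.84, SE 0.28, adjusted p = 0.04158). These calls were lost under 7 (Muc1) and 6 (Krt7) of 12 alternatives, DESeq2, library size only and omission of WT2777, WT2931, KO2776 or KO2938 among them for both, with adjusted p up to 0.4352 and 0.3096. Their list summed to 101 to 161 CPM in litter 1 and 161 and 189 CPM in litter 2, and the duct-defining Krt19, Sox9 and Cftr were not analysed here. Stress and immediate early genes summed to 377 to 484 CPM in litter 1 and 302 and 341 CPM in litter 2, with 7 of 8 tested members below 0 and none past the threshold. Acinar markers, of which 9 of 20 were in the table, summed to 51.1 to 104 CPM in litter 1 and 69.9 and 81.1 CPM in litter 2. By genotype they summed to 76.8 to 104 CPM in WT and 51.1 to 69.9 CPM in flox/flox libraries. These sums rest on 29 to 80 counts per library, and 7.43% of single tested genes did not overlap between genotypes. The 1 acinar marker tested, Cel, did not pass by genotype (log2 fold change -0.34, edgeR adjusted p = 0.9998). Endothelial (36.7 to 57.7 CPM), stromal (6.76 to 14.1 CPM) and immune markers (8.74 to 23.3 CPM) were low in all libraries, with no member tested. The epsilon cell hormone Ghrl had 33 to 46 counts, with a log2 fold change of -0.01 by litter and 0.03 by genotype, neither past the threshold. The part of any of these in the Gcg difference was not tested.

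The genes whose log2 CPM over the 6 libraries was most like that of a hormone gene are given as a description. These points share library depth and composition. For Ins2 they were 5530401A14Rik (Pearson r = 0.991), Foxn3 (0.986) and Usp50 (0.984), and for Ins1 they were Gm960 (0.976), Dclre1c (0.973) and Gm26695 (0.972). Iapp was closest to Sema4g (0.978), Tspan18 (0.978) and Inpp5f (0.974). Gcg was closest to Ydjc (0.984) and Tmem140 (0.984), both with exons overlapped on the opposite strand, and to Rpph1 (0.976), the RNA of ribonuclease P. Dclre1c and Gm26695, named for Ins1, also have exons overlapped on the opposite strand. Among the hormone genes themselves, r was 0.812 for Ins1 and Ins2, 0.791 for Ins2 and Iapp, 0.904 for Ins1 and Gcg, and 0.783 for Ins2 and Gcg. It was 0.476 for Ins1 and Iapp, both beta cell genes, and 0.685 for Iapp and Gcg. Ppy had lower values, 0.256 with Iapp, 0.324 with Ins2, 0.597 with Ins1 and 0.679 with Gcg.

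Genes lying within 10 kb of a hormone gene had counts of their own. Gm16090, on the strand opposite Ttr and starting 19 bp from it, had 82 to 139 counts, against 4 to 12 for Ttr. Gm13561, opposite Gcg at 3616 bp, had 9, 15, 9 and 11 counts in litter 1 and 23 and 22 in litter 2. It was thus higher in litter 2, where Gcg was lower, while within litter 1 the libraries ranked alike by the counts of both genes. The litter 2 counts of Gm13561 come from libraries of unlike size after TMM scaling (739670 in WT2931 and 572220 in KO2938). Scaled to these sizes, Gm13561 was higher in KO2938, whereas Gcg was higher in WT2931. These are raw counts, and 32.9% of all tested genes did not overlap between litters in CPM. A relation between Gm13561 and Gcg was not tested. Igf2os, opposite Ins2 at 8299 bp, had 5 to 21 counts. Slco1a5, whose span on the opposite strand covers Iapp without sharing an exon, had 27 to 49 counts.

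The sequences just upstream of the hormone genes were read from RefSeq (GRCm38.p6) for 7 of the 9 genes. They are shown for Gcg, the hormone gene that passed between litters in the edgeR fit, and for Ins1, as a beta cell gene beside it. Capitals mark CATCTG on either strand (CAGATG where it lies on the other strand), the E box bound by NeuroD1 in hormone promoters.
Gcg (chr2:62483654-62483903, minus strand): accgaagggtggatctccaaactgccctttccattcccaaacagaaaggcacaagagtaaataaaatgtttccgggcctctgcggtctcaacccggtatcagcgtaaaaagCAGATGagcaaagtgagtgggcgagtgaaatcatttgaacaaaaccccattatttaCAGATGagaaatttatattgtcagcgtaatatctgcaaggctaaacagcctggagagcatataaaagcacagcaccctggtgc
Ins1 (chr19:52264047-52264296, plus strand): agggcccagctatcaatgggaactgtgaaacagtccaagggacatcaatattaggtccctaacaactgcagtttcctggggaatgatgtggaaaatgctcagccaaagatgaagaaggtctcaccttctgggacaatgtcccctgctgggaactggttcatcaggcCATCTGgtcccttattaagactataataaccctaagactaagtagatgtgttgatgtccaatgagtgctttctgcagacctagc
The letters were found in 4 of the 7 hormone promoters, those of Ins1, Iapp, Ucn3 and Gcg, and in 14.5% of 27025 RefSeq promoters of the same length. Gcg held 2 matches, at -139 and -83 from its start, and Ins1 held 1, at -84. The cyclic AMP response element TGACGTCA, searched on both strands, was found upstream of Sst alone among the 7, at -48, and in 1.62% of all promoters. TAAT and TATAAA were searched as well. TAAT was found in 5 of the 7 and in 55.3% of all promoters, and TATAAA in 2 of the 7 and in 13.0%. A match is a description of these letters and not of binding.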

How the data were processed

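A strand-specific total RNA kit was used on islets of 6 mice, 3 per genotype. Per the labels and the study's methods, the authors discarded rRNA reads, mapped the rest to mm10 with HISAT2 2.1.0 and counted them per Ensembl gene with HTSeq at near default settings, and the counts were deposited without normalization. A second deposited table holds the authors' own DESeq2 comparison (means, fold changes, p-values) and was not used. Symbols were matched by Ensembl identifier for 15258 of 15286 genes, with GRCm38 gene models.

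The hormone genes and lists were chosen with earlier results of these data known. Counts of the 5478 genes passing filterByExpr (minimum count 10) were tested with edgeR 4.0.16 in R 4.3.3 (quasi-likelihood, TMM, Benjamini-Hochberg), with genotype alone, and with genotype and litter. A gene was called at an adjusted p under 0.05. Each library is 1 mouse. The study states littermate controls and the labels give litters, so libraries were grouped by litter. Deviations from genotype means correlated at 0.14 to 0.27 within litter 1 and at 0.46 in litter 2, and at -0.35 to -0.25 across litters. Deviations of a genotype cancel out, so the negative values across litters follow from those within. The study describes 3 pairs of mice. Within litter 1, WT2772 and KO2775 differed least, then WT2777 and KO2776 (chi-square per degree of freedom 1.592 and 1.672). The other litter 1 combinations had 3.015 to 3.932. Pairs within litter 1 were not modelled. Ratios of counts plus 0.5 were compared by exact permutation (scipy 1.17.1). Scripts were tested on simulated data. Named genes were the 9 hormone genes, the 3 genes of most similar pattern for members with a mean of at least 50 counts, genes within 10 kb, Hprt, and list members past the threshold or of highest count. Other list members and neighbours of Pcsk2 were named after their values were seen. Mitochondrial genes were not analysed here. Some list genes are not reported here. Alternatives were DESeq2 1.42.0, other normalizations, no filter, other pseudocounts, litter as a block and each library left out. Totals of 611181 to 800255 counts limit the precision of the sparse genes.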

Additional observations from a re-analysis of the deposited data

How the results depend on the processing

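Low counts are the main limit, since 4 of the 9 hormone genes did not pass the filter and Hprt had at most 2 counts. Under every alternative run (DESeq2, RLE, TMM without the 10 most abundant genes, library size only, no filter, the replicate block on litter and each library left out), 0 hormone genes and 0 other list genes were called by genotype. The ratios were recomputed with other pseudocounts, within litters and with each library left out, and since their smallest possible p is 0.1, no p-value of theirs speaks to stability. The replicate block changed no call of a hormone gene or other list gene. Over all 5478 tested genes, 3 were called by genotype with the block and 0 without it. Scaling by library size only shifted the median over all genes from -0.01 to -0.23 by genotype and to -0.19 by litter, and it turned Ins1 by genotype to -0.18 and the interaction of Iapp to -0.46 and of Gcg to -0.46, while RLE turned the interaction of Ttr to 0.012. By litter, DESeq2 called 0 hormone genes, against 1 in the edgeR fit, and leaving out single libraries gave 0 to 1. The other list genes called by litter numbered 4, and 1 with DESeq2, 1 with library size only and 1 to 6 with a library left out (1 without KO2776 or KO2938, 2 without WT2777), with Scg2 called throughout. The causes were not tested. Leaving out a library turned the sign of some small log2 values, none of them past a threshold. By genotype Ins1 lay between -0.071 and 0.12, with -0.0147 without WT2772 and -0.0119 without WT2931. Gcg lay between -0.68 and 0.42, Sst between -0.76 and 0.16, Ppy between -1.08 and 0.033, Pyy between -0.59 and 0.84 and Ins2 between -0.23 and 0.027. Without KO2938, Gcg was at 0.01 and Sst at 0.14. By litter, Pyy lay between -0.69 and 0.58, and was at 0.14 without WT2931. The genotype difference of Gcg over Ins2 lay between -0.35 and 0.35 (0.08 without KO2775, 0.14 without KO2938), that of Ppy over Ins2 between -0.83 and 0.14 and that of Ppy over Gcg between -0.65 and 0.061. The litter differences of ratios, added after seeing the data, lay between -0.24 and 0.18 for Ttr over Ins2 (0.18 without WT2772, 0.05 without WT2777, 0.17 without KO2938), between -0.076 and 0.18 for Iapp over Ins2 (-0.02 without KO2775) and between -0.64 and 0.014 for Ppy over Ins2.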
